A study of Rattus norvegicus with 44 samples.

Results

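The genes described here are Has1, P4ha1, Spry1 and Plagl1, 4 of the 10412 genes measured on the arrays, read from 5 of the 14055 probes. They were selected on measured levels: they are 4 of the 14 genes whose transcript level was called higher in the choroid plexus of rats 3 h after amphetamine than after saline, so that difference is how they were chosen and is not a finding. The study set amphetamine (AMPH), which the labels describe as amphetamine toxicity, beside hyperthermia brought about by the surroundings (EIH), with saline as control, in choroid plexus and in trunk blood. All rats were males of the NCTR Sprague-Dawley strain, 3 months old, and tissue was taken 3 h or 1 day after exposure. The 44 single-colour arrays form 11 groups of 4.

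The choroid plexus groups were AMPH, EIH and saline at 3 h and AMPH and EIH at 1 day, 20 arrays in all, each a pool of 3 rats. The blood groups were AMPH, EIH and saline at 3 h and again at 1 day, 24 arrays, each from 1 rat. The 4 choroid plexus EIH pools of 1 day bear titles of controls, while their source and treatment labels give EIH, and they were used as EIH. Rat numbers in most of these pools also stand on blood samples labelled EIH at 1 day. A tag on the blood samples names the striatum, although the protocol describes trunk blood. Rat numbers in the labels link 17 of the 24 blood samples to a pool. Among the pools, 5 rat numbers stand in more than 1, 7 pools in all, and 3 of the 5 stand in pools of different exposure or time. A single rat cannot belong to both such pools, so some labels must be wrong or some numbers reused, and which is not known. Numbers also recur within the choroid plexus EIH group of 1 day and link 3 of its 4 pools, so those pools may not be independent. The arrays of 3 h had median intensities of 139 to 146 and those of 1 day 165 to 171, as if each time had been normalised apart, and no choroid plexus saline group of 1 day was analysed here. In choroid plexus, time and normalisation set therefore cannot be told apart. Epithelial markers matched the labelled tissue: 9 of 9 tested were higher in saline choroid plexus than in saline blood at 3 h, and transthyretin (Ttr) averaged 15.99 log2 units in the plexus against 4.57 in the 3 saline blood samples with a value.

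Has1 encodes a hyaluronan synthase, an enzyme of the cell membrane that spins out hyaluronan, the long unbranched sugar polymer of the extracellular matrix. P4ha1 encodes the catalytic alpha subunit of collagen prolyl 4-hydroxylase, which works in the endoplasmic reticulum with a beta subunit made by P4hb and modifies proline so that the collagen helix is stable. Spry1 encodes a Sprouty protein, an inhibitor of growth factor receptor signalling to the kinase Erk that is itself induced by such signalling. Plagl1, also called Zac1, encodes a zinc finger transcription factor linked to growth arrest and is expressed from the paternal allele in many tissues. The choroid plexus is a folded epithelium over a vascular stroma that secretes cerebrospinal fluid.

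The promoters of the 4 genes are shown because their transcripts were selected by the same contrast, a higher level in choroid plexus after AMPH than after saline. All 4 were found in the RefSeq table of build GRCr8, which gives 250 bases before and 50 after a start of each gene. Capitals mark the matches to the motifs searched, on both strands.
Has1, chr1:67378395-67378694, minus strand: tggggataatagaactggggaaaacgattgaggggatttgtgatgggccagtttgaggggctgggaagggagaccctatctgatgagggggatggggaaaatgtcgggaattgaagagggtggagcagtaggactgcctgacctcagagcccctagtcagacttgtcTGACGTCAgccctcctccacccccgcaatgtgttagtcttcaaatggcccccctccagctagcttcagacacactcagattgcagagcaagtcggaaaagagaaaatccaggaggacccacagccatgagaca
P4ha1, chr20:27844796-27845095, plus strand: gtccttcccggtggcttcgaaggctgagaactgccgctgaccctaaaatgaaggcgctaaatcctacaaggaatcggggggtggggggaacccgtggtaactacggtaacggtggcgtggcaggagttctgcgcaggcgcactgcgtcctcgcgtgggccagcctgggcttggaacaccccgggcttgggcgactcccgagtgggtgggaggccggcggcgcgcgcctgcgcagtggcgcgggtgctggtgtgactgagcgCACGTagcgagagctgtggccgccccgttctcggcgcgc
Spry1, chr2:122485097-122485396, plus strand: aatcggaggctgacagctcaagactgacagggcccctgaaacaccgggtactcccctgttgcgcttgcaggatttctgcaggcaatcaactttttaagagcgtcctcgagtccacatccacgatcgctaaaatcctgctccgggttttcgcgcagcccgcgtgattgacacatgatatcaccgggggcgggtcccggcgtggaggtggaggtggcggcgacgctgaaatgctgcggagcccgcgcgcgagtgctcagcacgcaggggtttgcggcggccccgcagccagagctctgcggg
Plagl1, chr1:9297214-9297513, plus strand: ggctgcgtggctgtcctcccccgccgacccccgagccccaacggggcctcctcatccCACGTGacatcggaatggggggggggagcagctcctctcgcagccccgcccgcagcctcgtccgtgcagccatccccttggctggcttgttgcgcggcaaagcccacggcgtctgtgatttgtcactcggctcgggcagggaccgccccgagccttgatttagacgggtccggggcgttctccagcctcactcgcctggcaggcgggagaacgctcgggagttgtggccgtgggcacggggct

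The Has1 window holds the palindromic cyclic AMP response element TGACGTCA at positions -83 to -76 from the start, which 1.83% of 33469 promoters of this length hold. The P4ha1 window holds the hypoxia response core ACGTG on the other strand, 11 to 15 bases after the start, as do 19.3% of promoters on either strand. The Plagl1 window holds an E-box, CACGTG, at positions -193 to -188, a motif found in 6.42% of promoters that contains the hypoxia core on both strands. The Spry1 window held no searched motif. None of the 4 windows held the heat shock element written GAANNTTC (8.59% of promoters), the AP-1 site TGANTCA (7.33%), the Sp1 site GGGGCGGGG (9.73%), the TATA box TATAAA (14.2%) or a glucocorticoid response element (0.415%). The GC content was 54.0% for Has1, 68.3% for P4ha1, 63.0% for Spry1 and 70.7% for Plagl1, against a median of 51.7% over all promoters. These matches describe letters in a window and are not measured binding sites.

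In choroid plexus 3 h after AMPH, Has1 had log2 intensities of 7.50, 8.20, 6.78 and 6.83, against 4.58, 5.15, 5.17 and 3.00 after saline. P4ha1 had 10.79, 11.08, 10.87 and 9.62 after AMPH, against 8.93, 8.82, 8.78 and 8.31 after saline. Every AMPH pool lay above every saline pool for both matrix genes, as for 7.23% of genes without blanks, and AMPH replicate 4 was the lowest AMPH pool for P4ha1. Spry1 had 9.75, 10.17, 9.65 and 8.44 after AMPH, against 7.67, 7.81, 7.98 and 7.80 after saline. Plagl1 had 8.29, 8.75, 8.62 and 7.49 after AMPH, against 6.76, 6.62, 7.22 and 6.59 after saline. Again the groups did not overlap, and AMPH replicate 4 was the lowest AMPH pool for both genes.

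The differences between AMPH and saline were 2.85 ± 0.54 for Has1, 1.88 ± 0.33 for P4ha1, 1.69 ± 0.33 for Spry1 and 1.49 ± 0.25 for Plagl1 (log2, SE, n = 4 pools each). On a linear scale these are 7.23-fold, 3.69-fold, 3.23-fold and 2.81-fold. They come from the contrast that chose the genes, in which 0.136% of the 10263 genes tested were called higher at an adjusted p under 0.05, and they carry no test here. Spry1 was the last gene inside that threshold, with an adjusted p of 0.0487 over all genes, and Ahsa2, with a difference of 2.14 and an adjusted p of 0.0508, lay just outside. Tested probe by probe, the Spry1 probe used here and the Has1 probe fell outside in that contrast, at limma adjusted p of 0.0555 and 0.0528. P4ha1 and Plagl1 stayed inside, both at 0.0406. The lowest Has1 value, in saline replicate 4, was close to the dimmest values of the 3 h arrays, which were 1.76 to 3.23 log2 units, and the file carries no detection flag, so the fold of Has1 rests on dim saline values.

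**Figure D1:**
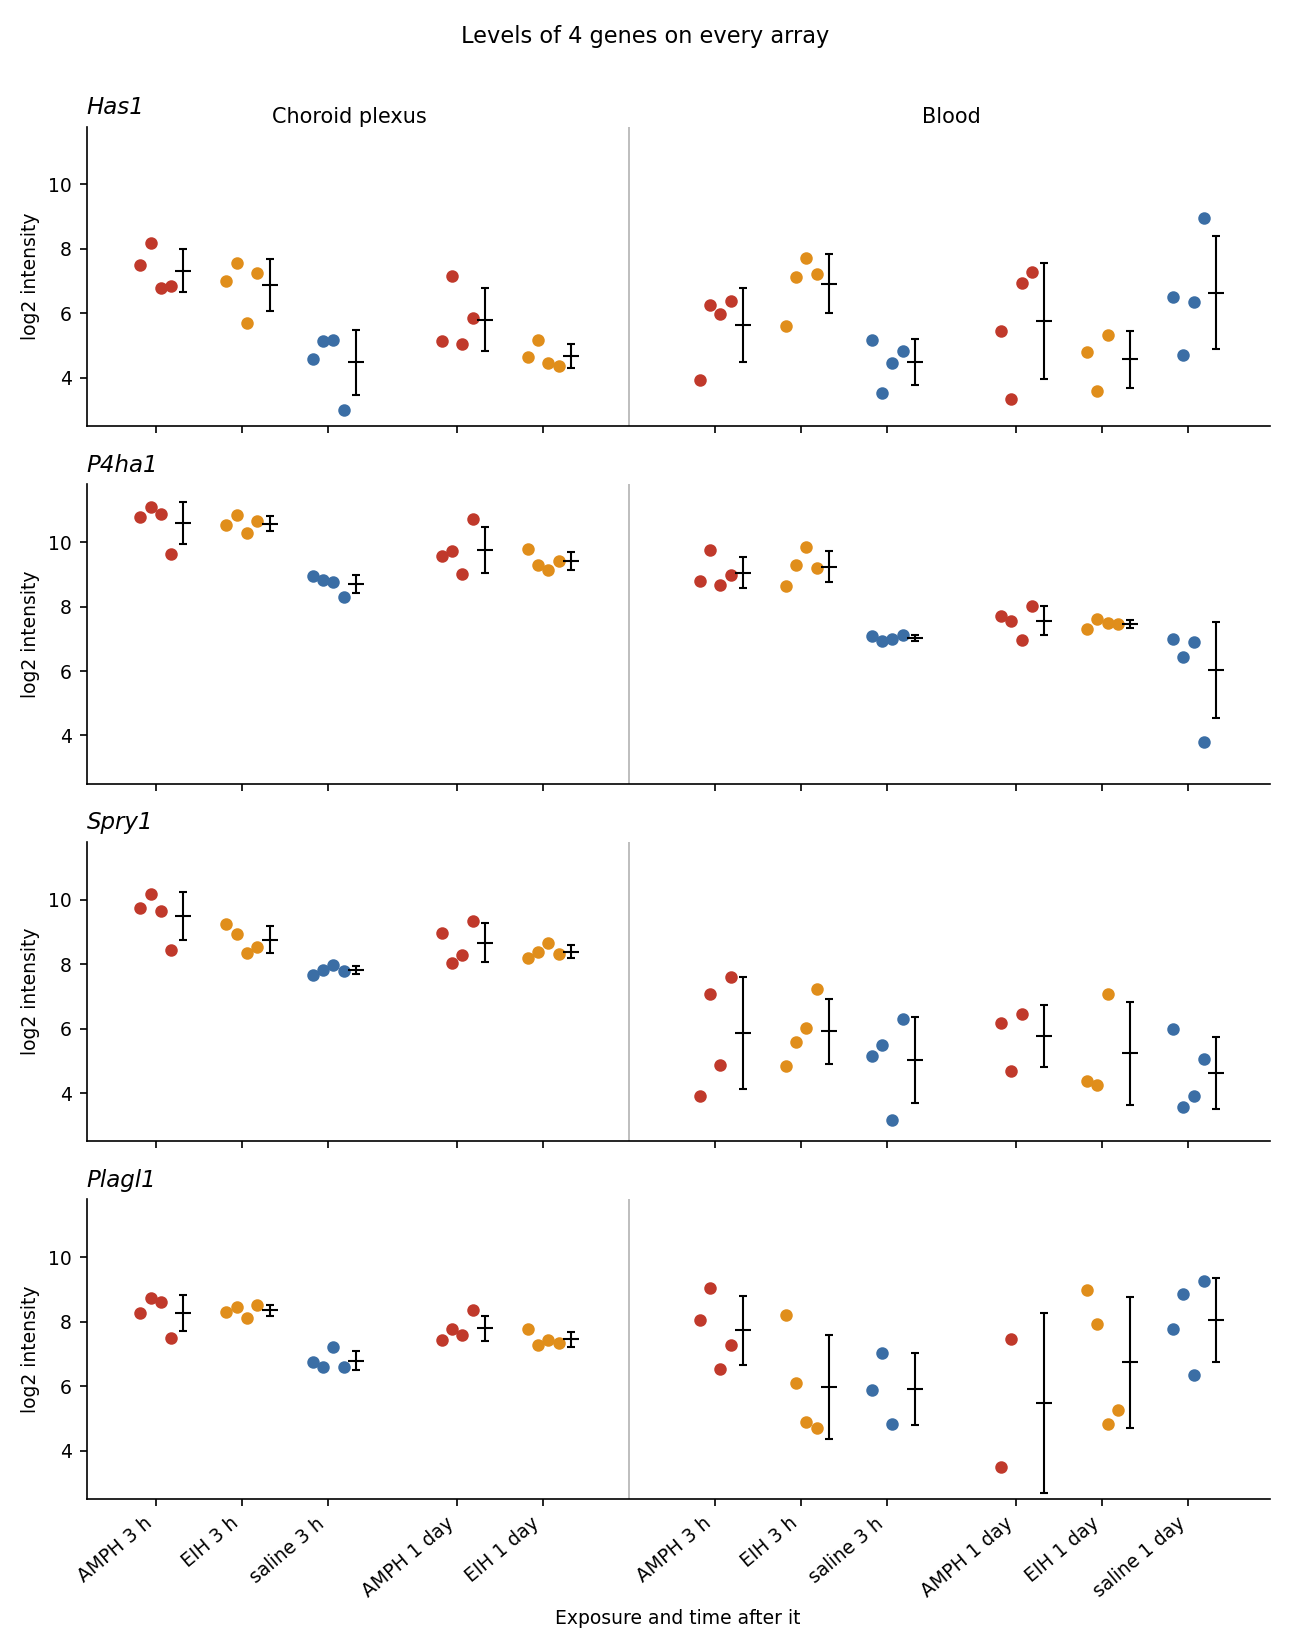
Log2 intensity of Has1, P4ha1, Spry1 and Plagl1 on each of the 44 arrays by tissue, exposure and time; each point is an array, and the bar beside it the group mean ± SD. In choroid plexus at 3 h every AMPH and EIH point lies above every saline point for all 4 genes, while in blood only P4ha1 separates both exposures from saline at 3 h. The AMPH and saline pools of choroid plexus at 3 h chose the genes, and Spry1 is read from its brighter probe.

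The same 4 genes were then read in the EIH pools, which the rule did not use, although the saline pools of the comparison entered the rule. Its adjusted p-values are therefore those of the fit over all genes and not independent tests of these 4. P4ha1 and Plagl1 passed the threshold, and both matrix genes and both growth signal genes had all EIH pools above all saline pools, as did 8.65% of genes without blanks. Has1 had 7.00, 7.56, 5.72 and 7.24 in EIH pools, P4ha1 10.53, 10.83, 10.27 and 10.67, Spry1 9.25, 8.93, 8.34 and 8.55, and Plagl1 8.32, 8.47, 8.13 and 8.52. EIH replicate 3 was the lowest EIH pool for each of the 4 genes.

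P4ha1 was 1.87 ± 0.33 higher after EIH than after saline (log2, SE, 3.64-fold, 95% interval 2.26 to 5.87, limma adjusted p 0.0217). Plagl1 was 1.56 ± 0.25 higher (2.96-fold, 95% interval 2.05 to 4.27, limma adjusted p 0.0217). These 2 calls stand beside 0.331% of 10261 genes called higher. Has1 differed by 2.40 ± 0.54 (5.29-fold), with a limma adjusted p of 0.0674, and Spry1 by 0.95 ± 0.33 (1.94-fold), with a limma adjusted p of 0.216. Has1 passed in 5 of 18 other settings, with limma adjusted p of 0.00413 to 0.330 over them. Leaving out saline replicate 1, 3 or 4, or EIH replicate 1, 2 or 4, ended the calls of P4ha1 and Plagl1, with differences of 1.73 to 1.97 and 1.50 to 1.71 over all such omissions and limma adjusted p of at most 0.101. Without the pools that hold a recurring rat the differences were 1.65 and 1.46, at a limma adjusted p of 0.330.

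Set directly against each other at 3 h, the AMPH and EIH pools overlapped for all 4 genes. The difference of AMPH minus EIH was 0.45 (95% interval -0.69 to 1.59) for Has1, 0.02 (-0.67 to 0.70) for P4ha1, 0.74 (0.05 to 1.42) for Spry1 and -0.08 (-0.60 to 0.45) for Plagl1. Because the AMPH pools chose the genes, these are descriptions with no test. A second, dimmer Spry1 probe gave another picture of that gene: its difference of AMPH minus EIH was 0.07 ± 0.39, and it was 1.04 ± 0.39 above saline after AMPH and 0.97 ± 0.39 above saline after EIH (log2, SE, n = 4 each). On that probe AMPH replicate 4, at 5.39, lay below 3 of the saline pools, which read 5.50, 5.57, 5.58 and 4.47.

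At 1 day, Has1 had 5.14, 7.17, 5.06 and 5.85 in AMPH pools, against 4.66, 5.19, 4.46 and 4.36 in EIH pools. P4ha1 had 9.58, 9.72, 9.03 and 10.71 in AMPH pools, against 9.79, 9.29, 9.13 and 9.43 in EIH pools. The exposures overlapped for both, and the highest AMPH pool was replicate 2 for Has1 and replicate 4 for P4ha1. Spry1 had 8.99, 8.05, 8.27 and 9.34 against 8.20, 8.37, 8.67 and 8.32, and Plagl1 had 7.45, 7.78, 7.60 and 8.36 against 7.79, 7.27, 7.45 and 7.34, in AMPH and EIH pools. None of the 4 genes was called between AMPH and EIH at 1 day, where limma called 0% of 10204 genes and 554 had an unadjusted p under 0.05. The differences were 1.14 (95% interval -0.0016 to 2.28, limma adjusted p 0.758) for Has1, 0.35 (-0.34 to 1.04) for P4ha1, 0.27 (-0.42 to 0.96) for Spry1 and 0.34 (-0.19 to 0.86) for Plagl1.

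The high Has1 pool, AMPH 1 day replicate 2, stood apart from its group, with a median correlation of 0.863 to the other 3 pools. Its epithelial markers summed to 124353 intensity units, against 283688 to 297970 in those 3 pools, its 11 stromal and meningeal markers to 221086, against 85686 to 95492, and 4 neutrophil markers to 4626, against 416 to 518. The EIH 1 day pool of replicate 1 had a stromal and meningeal sum of 163658, against 89873 to 93582 in the other 3 pools of its group, and was the highest of that group for P4ha1 and Plagl1. The part of these markers in the levels of the 4 genes was not tested. In a tissue pool, more cells of a type and more RNA per cell cannot be told apart.

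All 4 genes averaged less at 1 day than at 3 h after the same exposure, and for EIH neither group entered the rule. The EIH pools of 1 day lay below all EIH pools of 3 h for Has1, P4ha1 and Plagl1, as did 4.13% of genes without blanks. By their labels most of those 1 day pools share rat numbers, and 1 number stands in both groups, so the pools may not be independent. The differences of EIH 1 day minus EIH 3 h were -2.21 ± 0.54 for Has1 (limma adjusted p 0.121), -1.17 ± 0.33 for P4ha1 (0.151), -0.90 ± 0.25 for Plagl1 (0.151) and -0.38 ± 0.33 for Spry1 (0.642), while the median over all genes was 0.17. limma called 0% of 10278 genes in that comparison, and 1420 had an unadjusted p under 0.05. With every array set to the same median, Has1, P4ha1 and Plagl1 passed, at -2.45, -1.41 and -1.14 and limma adjusted p of 0.0412, 0.0465 and 0.0412. After AMPH the differences of 1 day minus 3 h were -1.52 for Has1, -0.83 for P4ha1, -0.84 for Spry1 and -0.49 for Plagl1, given without a test because the 3 h pools chose the genes.

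The 1 day pools are set beside the saline pools of 3 h as a description, since those pools entered the rule. P4ha1, Spry1 and Plagl1 had all AMPH pools of 1 day above all saline pools of 3 h, by 1.05, 0.85 and 1.00 on average, where 6.44% of genes did. The same 3 genes had all EIH pools of 1 day above them, by 0.70, 0.58 and 0.67, where 12.2% of genes did. Has1 overlapped saline in both cases, at differences of 1.33 for AMPH and 0.19 for EIH. The values also cross the normalisation sets, whose medians over all genes differed by 0.11 for AMPH and 0.17 for EIH.

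In blood at 3 h, P4ha1 rose after both exposures. It had 8.80, 9.74, 8.68 and 8.98 in AMPH rats and 8.65, 9.30, 9.84 and 9.19 in EIH rats, against 7.10, 6.92, 6.98 and 7.13 in saline rats. The saline rats lay within a narrow band, and every exposed rat lay above it, as for 11.8% of genes without blanks after AMPH and 12.7% after EIH. P4ha1 was 2.02 ± 0.48 higher after AMPH (4.04-fold, limma adjusted p 0.0136, where 4.95% of 9863 genes were called higher). It was 2.21 ± 0.48 higher after EIH (4.62-fold, limma adjusted p 0.00430, where 5.54% of 9893 genes were called higher). Both exposures share the saline rats. Leaving out AMPH replicate 2, the highest of its group, ended the AMPH call at a difference of 1.78 and a limma adjusted p of 0.0515; the EIH call held without any 1 array.

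Blood cell markers moved at the same time. The 4 neutrophil markers measured on every blood array summed to 62396 to 102971 in AMPH rats and 32884 to 75878 in EIH rats, against 19764 to 32981 in saline rats, and 2 of 5 were called higher after each exposure. Over all genes tested, 4.95% were called higher after AMPH and 5.54% after EIH. All 3 T cell markers tested were called lower after each, with sums of 4274 to 7545 in AMPH rats and 3350 to 7564 in EIH rats, against 10279 to 12937 in saline rats. In either direction, 826 of 9863 genes were called after AMPH and 1232 of 9893 after EIH. The 6 stromal markers measured on every blood array summed to 5087 to 12129 in AMPH rats and 6549 to 10177 in EIH rats, against 2935 to 4190 in saline rats. The part of these markers in the P4ha1 difference was not tested.

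The other 3 genes were dim and scattered in blood, and none was called at 3 h. Has1 had 3.92, 6.25, 5.98 and 6.39 in AMPH rats and 5.61, 7.12, 7.71 and 7.23 in EIH rats, against 5.16, 3.53, 4.46 and 4.82 in saline rats. All EIH rats lay above all saline rats for Has1, as for 12.7% of genes without blanks, at a difference of 2.42 ± 0.87 and a limma adjusted p of 0.0765, while AMPH rats overlapped saline at 1.14 ± 0.87. Spry1 was between 3.92 and 7.60 in AMPH rats and between 4.84 and 7.23 in EIH rats, against 3.18 to 6.30 in saline rats. Plagl1 was between 6.55 and 9.07 in AMPH rats and between 4.70 and 8.22 in EIH rats, against 4.82 to 7.04 in the 3 saline rats with a value. For Spry1 and Plagl1 all groups overlapped, and the intervals of the differences were wide, for example -2.39 to 2.51 for Plagl1 after EIH.

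At 1 day in blood no member was called after AMPH, where 1.55% of 9797 genes were called higher, or after EIH, where 0.041% of 9762 genes were. P4ha1 had 7.71, 7.55, 6.96 and 8.02 in AMPH rats and 7.29, 7.60, 7.50 and 7.46 in EIH rats, against 7.00, 6.43, 6.89 and 3.81 in saline rats. Every EIH rat lay above every saline rat, as for 3.36% of genes without blanks, while 1 AMPH rat lay within the saline range. The differences were 1.53 ± 0.48 after AMPH (limma adjusted p 0.0990) and 1.43 ± 0.48 after EIH (limma adjusted p 0.361). They rest in part on saline replicate 4, which correlated least with its group, at a median of 0.866: without it they were 0.78 and 0.69. Without saline replicate 1 the AMPH difference was 1.85, at a limma adjusted p of 0.0435.

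The P4ha1 effects in blood at 1 day minus those at 3 h were -0.49 (95% interval -1.91 to 0.93) for AMPH, where 0.379% of 9491 genes were called, and -0.78 (-2.20 to 0.64) for EIH, where 8.62% of 9483 were, and neither passed. Has1 at 1 day was 5.45, 3.33, 6.96 and 7.29 in AMPH rats and 4.80, 3.60 and 5.33 in the 3 EIH rats with a value, against 6.52, 4.72, 6.34 and 8.96 in saline rats. Its differences from saline were -0.88 ± 0.87 and -2.06 ± 0.94, neither called. Spry1 and Plagl1 had blanks at 1 day and differences with SE of 0.96 to 1.32, and no call.

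**Figure D2:**
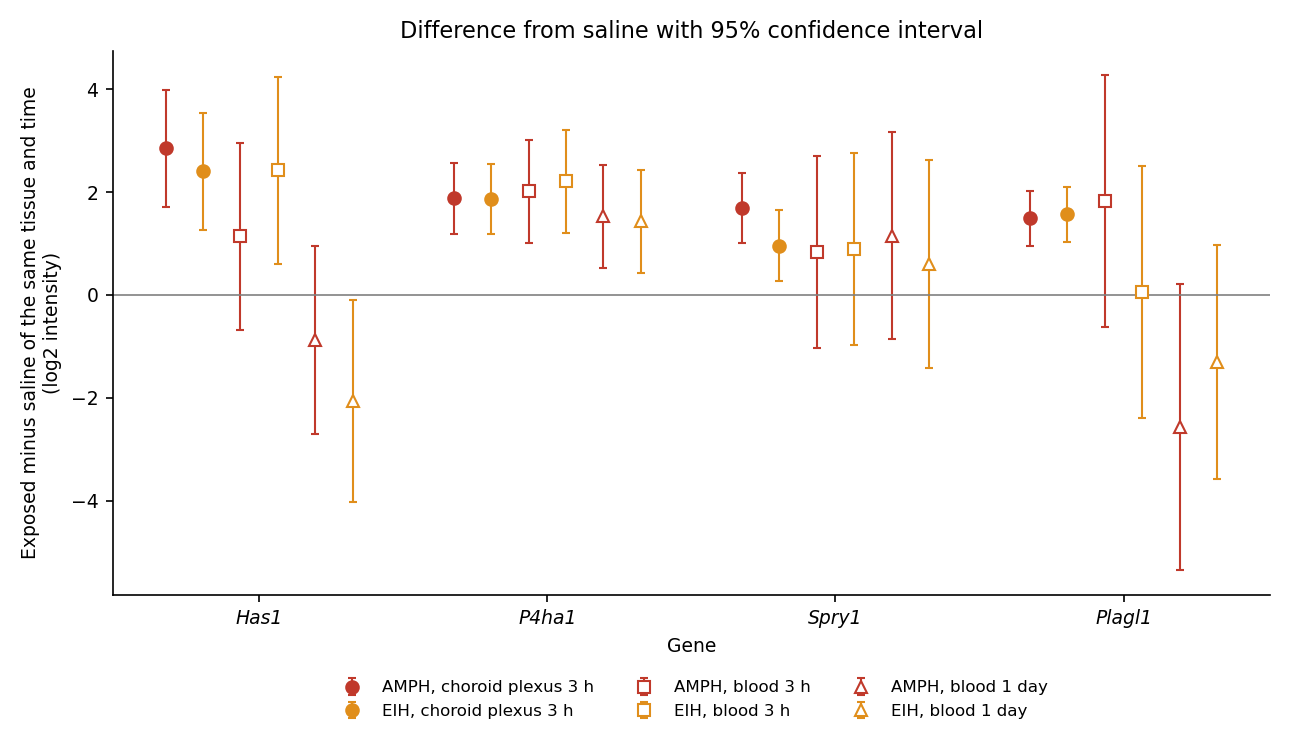
Difference of exposed minus saline of the same tissue and time for each gene, in log2 units, with 95% confidence intervals from the fit; filled points are choroid plexus and open points blood. P4ha1 lies between 1.43 and 2.21 in all 6 comparisons, of which AMPH in choroid plexus at 3 h chose the genes. Its blood differences at 1 day were not called, and without saline replicate 4 they were 0.78 after AMPH and 0.69 after EIH. The blood intervals of Spry1 and Plagl1 all include 0. Those of Has1 after EIH lie above 0 at 3 h (0.60 to 4.24) and below 0 at 1 day (-4.02 to -0.09), neither called.

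The saline groups of 3 h compare the tissues without exposure, with the limit that the plexus saline pools entered the rule, here and in the comparison of EIH effects. P4ha1 was 1.68 ± 0.42 higher in choroid plexus than in blood (3.20-fold, limma adjusted p 0.000969), and Spry1 2.78 ± 0.69 higher (6.87-fold, limma adjusted p 0.000873), in a comparison where 30.1% of 9925 genes were called higher. Has1 differed by -0.02 ± 0.75 and Plagl1 by 0.88 ± 0.87, neither called. The EIH effect at 3 h in choroid plexus minus that in blood was not called for any member, where 6% of 9813 genes were called. It was -0.34 (95% interval -1.56 to 0.88) for P4ha1, -0.02 (-2.17 to 2.13) for Has1, 0.06 (-1.93 to 2.06) for Spry1 and 1.51 (-0.89 to 3.91) for Plagl1, and these intervals leave room for differences of more than 1 log2 unit.

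Over the 11 groups, P4ha1 had its highest means in exposed plexus and its lowest in saline blood. The highest means were 10.59 ± 0.66 in AMPH and 10.58 ± 0.24 in EIH plexus at 3 h, followed by 9.76 ± 0.70 in AMPH and 9.41 ± 0.28 in EIH plexus at 1 day (log2, SD, n = 4). Exposed blood at 3 h came next, at 9.24 ± 0.49 for EIH and 9.05 ± 0.48 for AMPH, above saline plexus at 8.71 ± 0.28. The blood groups of 1 day followed at 7.56 ± 0.45 for AMPH and 7.46 ± 0.13 for EIH, and saline blood was lowest at 7.03 ± 0.09 at 3 h and 6.03 ± 1.50 at 1 day. Of the 10 steps between neighbours in this order, 3 exceeded the larger SD of the neighbouring groups: EIH plexus at 3 h over AMPH plexus at 1 day, saline plexus over AMPH blood at 1 day, and EIH blood at 1 day over saline blood at 3 h. All 3 steps set a 3 h group beside a 1 day group and so cross the normalisation sets. The last was a gap of 0.43, while array medians were 7.12 to 7.19 log2 units at 3 h and 7.36 to 7.42 at 1 day.

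Spry1 had its 5 highest means in the 5 plexus groups, at 9.50 ± 0.75, 8.77 ± 0.41, 8.66 ± 0.60, 8.39 ± 0.20 and 7.81 ± 0.13 for AMPH 3 h, EIH 3 h, AMPH 1 day, EIH 1 day and saline 3 h. The blood groups lay at 4.63 to 5.92. Only the steps from EIH 1 day to saline plexus and from saline plexus to EIH blood at 3 h exceeded the larger SD. The former step crosses the normalisation sets. For Plagl1 the single step above the larger SD also crosses these sets. It was from EIH plexus at 1 day, 7.46 ± 0.23, to saline plexus, 6.80 ± 0.29. The highest Plagl1 mean was 8.36 ± 0.18 in EIH plexus at 3 h, and blood means ran from 5.49 to 8.06. For Has1 none of the 10 steps exceeded the larger SD, from 7.33 ± 0.67 in AMPH plexus at 3 h, past 6.92 ± 0.91 in EIH blood and 6.88 ± 0.81 in EIH plexus at 3 h, to 4.48 ± 1.02 in saline plexus.

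Across the 20 choroid plexus arrays the 4 genes varied together, which their selection makes likely. P4ha1 and Plagl1 had a Pearson r of 0.958 over all 20 arrays and 0.945 over the 12 arrays outside the AMPH and saline groups of 3 h. The pair of Has1 and P4ha1 had 0.833 and 0.751, and that of Has1 and Plagl1 0.804 and 0.783. Spry1 was less alike outside those groups, with 0.271 to Has1, 0.549 to P4ha1 and 0.467 to Plagl1. These points share exposures, times and normalisation sets, so the values are descriptions.

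Among 8729 genes without blanks, the 4 nearest to Has1 by Pearson r over the 20 arrays were Dusp11 (0.914), Stat3 (0.910), Naa50 (0.897) and Cebpd (0.889). Those nearest to P4ha1 were Ahsa2 (0.964), Plagl1 (0.958), Cebpb (0.938) and Atf3 (0.935). Spry1 lay nearest to Tiparp (0.946), Tcf15 (0.942), Prpf3 (0.922) and Hdlbp (0.919). Plagl1 lay nearest to P4ha1 (0.958), Ahsa2 (0.927), Serpinh1 (0.921) and Atf3 (0.913). P4ha1 and Plagl1 thus share 2 of these neighbours, the cochaperone gene Ahsa2 and the stress-induced transcription factor gene Atf3.

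The relatives of the 4 genes did not pass the test in choroid plexus at 3 h: of 11 measured, none was called after AMPH or EIH by limma, although the 95% intervals of P4ha2 (0.041 to 0.68) and Spred1 (0.11 to 1.51) after EIH lay above 0. The other hyaluronan synthases were near the floor, with Has2 at 4.01 ± 1.81 after AMPH and 3.27 ± 0.64 after EIH, against 4.35 ± 0.62 after saline, and Has3 at 4.30 ± 0.84 and 4.14 ± 0.49, against 3.88 ± 0.43 on 3 saline arrays. The other alpha subunit gene P4ha2 was bright on its probe, at 12.48 ± 0.12 and 12.61 ± 0.26, against 12.25 ± 0.12, and P4hb, the beta subunit gene, was at 12.44 ± 0.07 and 12.31 ± 0.18, against 12.39 ± 0.20. The 95% interval of the difference after AMPH ran from -0.089 to 0.55 for P4ha2 and from -0.22 to 0.32 for P4hb. Levels of different probes are not comparable with each other.

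Among the relatives of Spry1, Spry2 was at 6.78 ± 0.49 after AMPH and 7.01 ± 0.15 after EIH, against 6.54 ± 0.49 after saline. Spry4 was at 5.41 ± 0.23 and 5.00 ± 0.96, against 5.21 ± 0.56. The Sprouty-related Spred1 differed by 0.25 ± 0.33 after AMPH and 0.81 ± 0.33 after EIH (limma adjusted p 0.309). Plagl2, a relative of Plagl1, was at 7.83 ± 0.34 and 7.95 ± 0.16, against 7.89 ± 0.23. In blood, Plagl2 fell by 0.72 after EIH at 3 h (limma adjusted p 0.00546), and P4hb rose by 1.36 after AMPH at 1 day (limma adjusted p 0.00895), a comparison in which 0 genes were called with only the compared groups fitted. In those rats the 4 neutrophil markers summed to 24600 to 69486 after AMPH, against 5520 to 24104 after saline, and 3 T cell markers to 6081 to 9700, against 11939 to 15119, and their part in the P4hb difference was not tested.

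**Figure D3:**
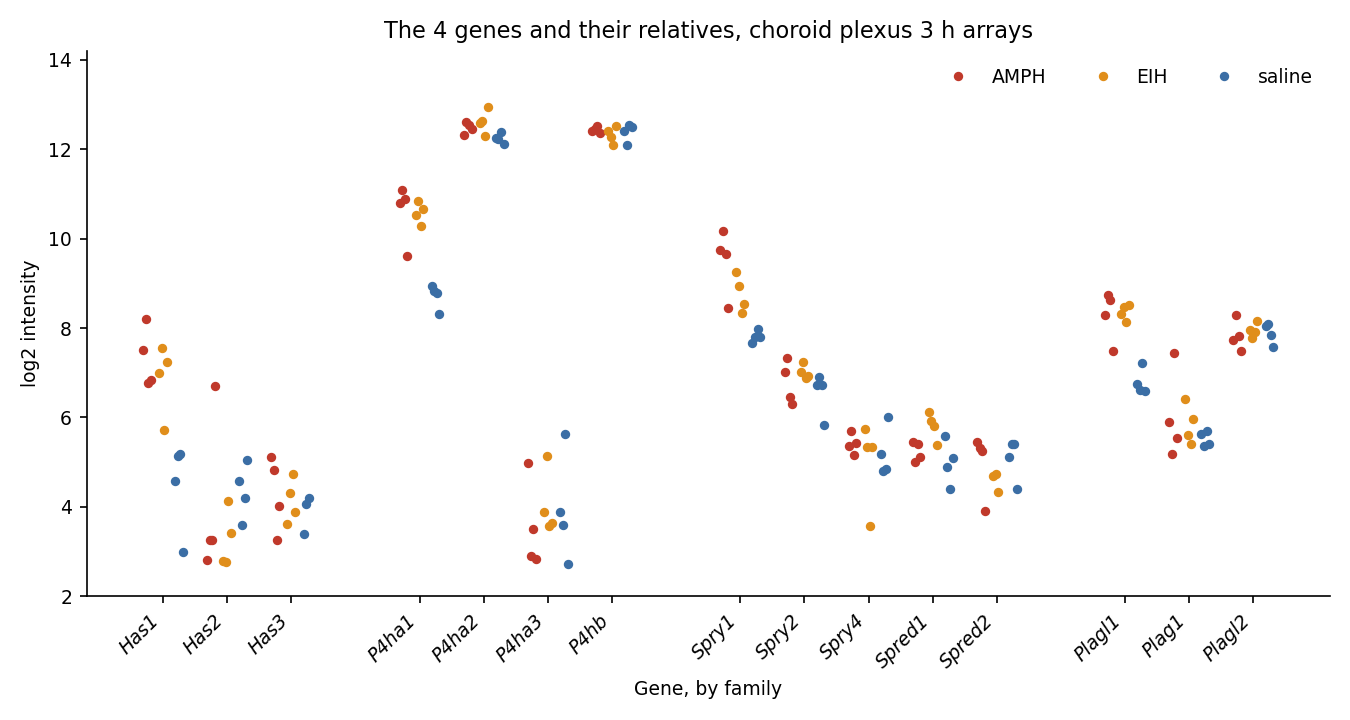
Log2 intensity on the 12 choroid plexus arrays of 3 h for Has1, P4ha1, Spry1 and Plagl1 and their measured relatives, AMPH left, EIH middle and saline right for each gene; each point is an array. The 4 selected genes have every exposed point above every saline point, while the exposed and saline points of each of the 11 relatives overlap. The AMPH and saline pools shown chose the 4 genes and not the relatives, so this contrast was largely fixed in advance. Of genes without blanks, 7.23% had all AMPH pools and 8.65% all EIH pools above all saline pools. Spry1 is shown on its brighter probe, and on the dimmer one AMPH and saline points overlap.

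Hyaluronan genes other than Has1 did not pass in choroid plexus at 3 h: 0 of 30 tested after AMPH and 0 of 31 after EIH were called by limma, with 6 and 5 at an unadjusted p under 0.05 and median differences of 0.16 and 0.13, beside medians of 0.03 and 0.01 over all genes, of which 14.9% and 12.9% had such a p. The scavenger receptor gene Stab2, which takes up hyaluronan, differed by 1.58 ± 0.59 after AMPH and 0.45 ± 0.59 after EIH. Of the same list in blood at 3 h, 4 of 29 rose after AMPH and 4 of 30 after EIH, beside 4.95% and 5.54% of all genes tested. They included Vcan, a hyaluronan-binding proteoglycan (3.54 ± 0.72 and 3.36 ± 0.72), Cd44, the main hyaluronan receptor (0.70 ± 0.19 and 0.65 ± 0.19), and Tlr2 (1.69 ± 0.37 and 1.81 ± 0.37).

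Of 25 genes for collagen hydroxylation, folding and crosslinking besides P4ha1, 0 were called in choroid plexus after AMPH and 1 after EIH, with 5 and 6 at an unadjusted p under 0.05 and medians of 0.08 and 0.14. Serpinh1, which encodes the collagen chaperone Hsp47, rose by 1.91 ± 0.34 after EIH (limma adjusted p 0.0220) and differed by 1.48 ± 0.34 after AMPH (limma adjusted p 0.0773). The EIH call, like that of Phlda1, ends in the 6 fits without 1 array, and in the fit without recurring rats, in which limma called 0 genes. The crosslinking enzyme gene Tgm2 differed by 1.88 ± 0.51 after AMPH and 1.46 ± 0.51 after EIH, and the lysyl hydroxylase gene Plod1 by 0.87 ± 0.29 and 0.89 ± 0.29, none called. Of 24 tested in blood at 3 h, 2 rose after AMPH and 3 after EIH, beside 4.95% and 5.54% of all genes tested. Tgm2 was among both (2.52 ± 0.66 and 2.17 ± 0.66), with Plod3 after AMPH and with Serpinh1 and Plod1 after EIH.

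Of 32 matrix proteases, inhibitors and matricellular genes, none was called in choroid plexus, with 6 after AMPH and 7 after EIH at an unadjusted p under 0.05. The matricellular genes Ccn1 and Ccn2 had differences of 2.44 ± 0.73 and 1.69 ± 0.71 after AMPH and of 2.63 ± 0.73 and 1.81 ± 0.71 after EIH. Of 30 tested in blood at 3 h, 6 rose after each exposure, beside 4.95% and 5.54% of all genes tested after AMPH and EIH. The neutrophil collagenase gene Mmp8 (2.59 ± 0.52 after AMPH, 2.71 ± 0.52 after EIH), the gelatinase gene Mmp9 (3.30 ± 0.69 and 3.28 ± 0.69) and the urokinase receptor gene Plaur (2.37 ± 0.49 and 3.13 ± 0.49) were among both, beside the higher neutrophil markers given above.

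Of 18 feedback inhibitors and targets of receptor kinase signalling besides Spry1, 0 were called in choroid plexus after AMPH and 1 after EIH. At an unadjusted limma p under 0.05 stood 7 and 8 of the 18, beside 14.9% and 12.9% of all genes. The list was chosen with earlier results known, and both exposures share the saline pools that entered the rule, so the shares are descriptions. The median differences of the 18 genes were 0.36 and 0.49. The called gene was Phlda1, at 1.29 ± 0.26 after EIH (limma adjusted p 0.0381), and it differed by 0.94 ± 0.26 after AMPH. Dusp6, an Erk phosphatase, differed by 1.23 ± 0.34 after AMPH and 1.05 ± 0.34 after EIH, and the immediate early gene Egr1 by 2.21 ± 0.61 and 1.68 ± 0.61, neither called. Among the same 18 genes 3 rose in blood at 3 h after AMPH and 7 after EIH, beside 4.95% and 5.54% of all genes tested; Ier3 (2.43 ± 0.45 and 3.15 ± 0.45) and Egr1 (2.18 ± 0.57 and 2.56 ± 0.57) were among both.

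Of 39 growth factor ligands and receptors, limma called none in choroid plexus, with 8 after AMPH and 3 after EIH at an unadjusted p under 0.05. Bmp4, a secreted morphogen, differed by 1.72 ± 0.36 after AMPH and 0.70 ± 0.36 after EIH, and Hbegf, a ligand of the epidermal growth factor receptor, by 1.00 ± 0.31 and 1.05 ± 0.31. The vascular growth factor gene Vegfa rose in blood at 3 h by 1.36 ± 0.30 after AMPH and 1.38 ± 0.30 after EIH, with Egfr and Kdr after AMPH. These were the only calls of the list there, beside 4.95% of all genes tested called higher after AMPH and 5.54% after EIH. None of the relatives of Plagl1 and imprinted genes was called in choroid plexus, with 17 tested after AMPH and 16 after EIH, 0 and 1 at an unadjusted p under 0.05 in limma, and medians of 0.00062 and 0.0075. Of 15 tested in blood, 1 rose after each exposure, a share near the 4.95% and 5.54% of all genes tested: the cell cycle inhibitor gene Cdkn1a, higher by 2.77 ± 0.61 after AMPH and 3.08 ± 0.61 after EIH.

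**Figure D4:**
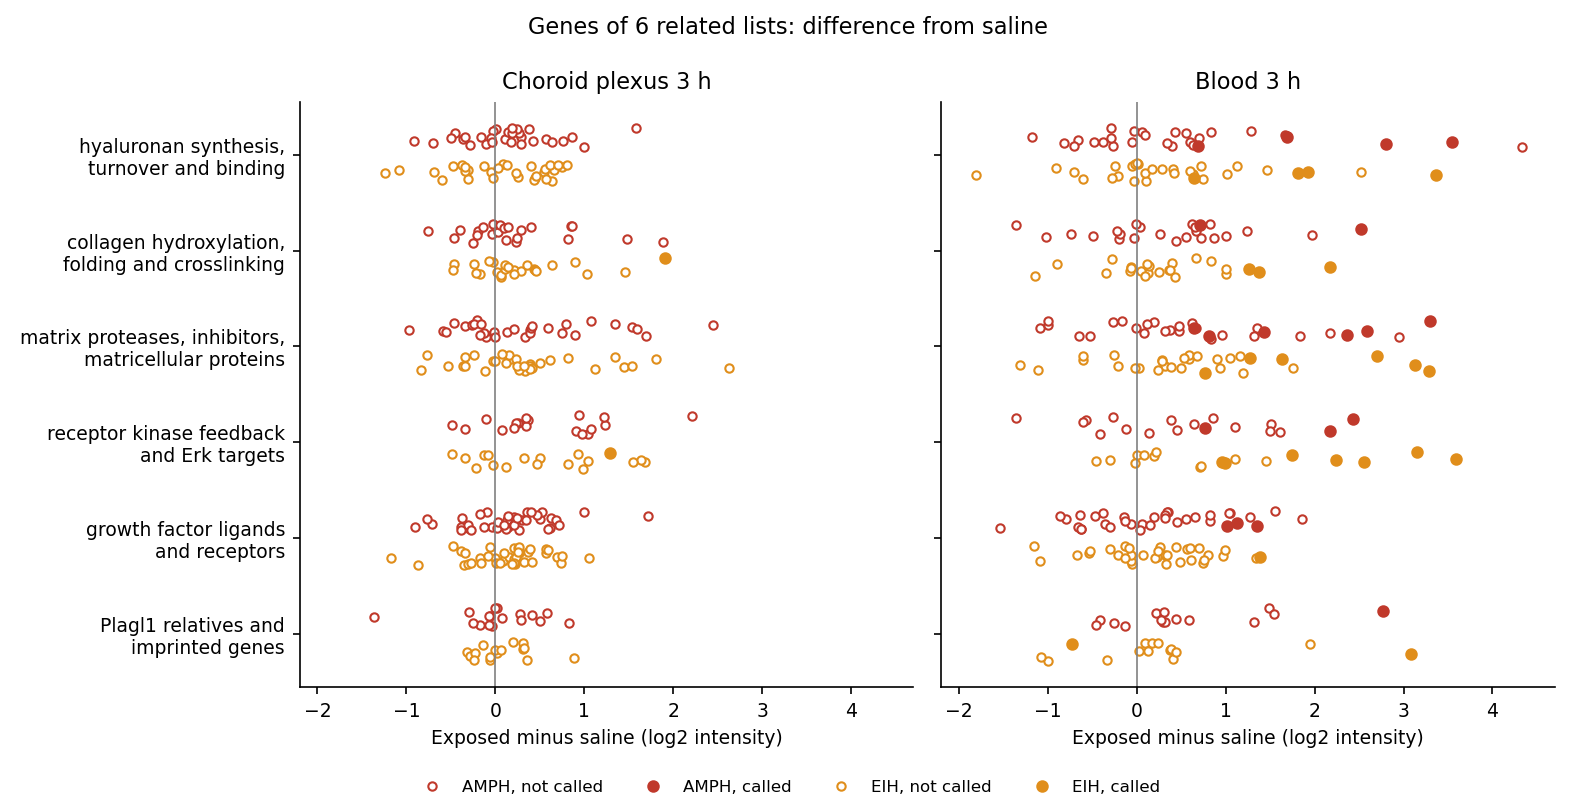
Difference of exposed minus saline at 3 h for the genes of 6 lists related to the 4 genes, in log2 units, AMPH above EIH in each row; filled points were called by limma and each point is a gene. In choroid plexus 2 points are filled, both EIH, while in blood filled points lie mostly on the positive side, with Plagl2 after EIH on the negative side.

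Cell type markers in choroid plexus at 3 h were not called after either exposure in any of 9 lists. Epithelial markers summed to 283832 to 301582 intensity units in AMPH pools and 276251 to 293415 in EIH pools, against 289023 to 302079 in saline pools. By the mean log2 of these markers the EIH pools, at 13.60 to 13.70, lay below all saline pools, at 13.71 to 13.90. The AMPH pools overlapped the saline pools by that mean. The 11 stromal and meningeal markers summed to 87858 to 91669 in AMPH pools and 85496 to 98765 in EIH pools, against 91260 to 98843 in saline pools, and these ranges overlapped. The 4 neutrophil markers summed to 448 to 694 in AMPH pools and 188 to 368 in EIH pools, against 136 to 405 in saline pools. The AMPH pools lay above all saline pools in that sum and the EIH pools did not. Endothelial markers summed to 4750 to 5725 in AMPH pools and 5795 to 8698 in EIH pools, against 6005 to 8331 in saline pools. Macrophage markers summed to 734 to 1290 in AMPH pools and 1154 to 1718 in EIH pools, against 1653 to 1926 in saline pools. In both sums the AMPH pools lay below all saline pools and the EIH pools overlapped them. A sum weighs the brightest markers most. By mean log2 the endothelial markers overlapped, at 7.35 to 7.72 in AMPH pools against 7.36 to 7.64 in saline pools. The macrophage markers did not, at 7.45 to 8.18 against 8.26 to 8.56. The part of all these markers in the levels of the 4 genes was not tested.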

How the data were processed

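Per the labels, RNA isolated in Tri Reagent was amplified, dyed with Cy3 and hybridised to single-colour Agilent arrays. How the scans were corrected and normalised is not given in the sources used here. The authors deposited linear intensity values of 14055 probes on 44 arrays, of which 3.05% in choroid plexus and 8.57% in blood were blank and stayed missing. Values were used as deposited after log2. Symbols came from the platform annotation, updated through accessions (11481 probes) or synonyms (78), and 1129 probes had none. The brightest probe stood for a gene.

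Groups were compared with limma 3.58.1 in R 4.3.3 on 20 choroid plexus arrays, on 24 blood arrays or, between tissues, on all 44, each group having its own mean. Testing required 2 or more values in both groups, except in the fits without pools that hold a recurring rat. Calls are Benjamini-Hochberg adjusted p under 0.05, taken over every gene tested. Errors are SD for levels and SE of the fit for differences; the number of arrays limits the precision, and replicates come from separate pools or rats, which the recurring rat numbers qualify. The 4 genes, the 6 gene lists and the tests were chosen with earlier results of these data known, and the list genes named are, for each list, up to 4 called genes and the 4 with the largest AMPH difference in choroid plexus at 3 h.

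Alternatives were other normalisations, dim genes left out, an intensity trend, array weights, only the compared groups, other probe rules, each array left out and pools with a recurring rat left out; fits without the arrays that stood apart and the time differences in blood were added after seeing the data. The fit was tested on simulated data with independent noise, over genes without blanks in the tissue. For EIH in choroid plexus at 3 h, over 8730 genes, 59% of the 2-fold and 86% of the 4-fold changes were recovered. For EIH in blood at 3 h, over 6711 genes, the shares were 41% and 69%. False calls were 7 of 152 and 6 of 116. Has1, Spry1 and Plagl1 have blanks in blood, so the blood shares do not cover them. Noise on real arrays may not be independent, so the shares need not hold there.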

Additional observations from a re-analysis of the deposited data

Results flagged for a closer look

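Has1 in blood 3 h after AMPH had 1 rat far from the others of its group: replicate 1 read 3.92 log2 units, while the other 3 rats read 5.98 to 6.39. Of 39 groups of 4 complete values of the 4 genes this was the 1 group marked by Dixon's criterion, which chance marks in about 1 of 20 groups.

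The EIH effect on Has1 in blood differed between times: the effect at 1 day minus that at 3 h was -4.48 ± 1.28 (log2, SE, limma adjusted p 0.0364, where 8.62% of 9483 genes were called), with 3 EIH rats measured at 1 day and 4 rats in each other group. It combines EIH rats above saline rats at 3 h (2.42) with EIH rats averaging below saline rats at 1 day (-2.06), where saline replicate 4 read 8.96. Leaving out each array gave -5.12 to -3.71, and in 9 of 15 such fits the limma adjusted p no longer passed, up to 0.0773; without saline replicate 4 of 1 day it was -3.71, at 0.0630. Each time has its own saline rats. The contrast was added after these values were seen.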

How the results depend on the processing

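No paired analysis was possible because the replicate numbers follow accession order and pair nothing; rat numbers link some blood samples to pools and were used as a block only between tissues. For the comparison of EIH with saline in choroid plexus at 3 h, 2 of the 4 genes were called, 4 with array weights, 0 without pools with a recurring rat and 0 to 3 over fits that leave out 1 array; over all genes 35 were called, 957 with array weights, 73 with dim genes left out or with an intensity trend, 67 with only the compared groups, 164 without AMPH 1 day replicate 2, 0 without recurring rats, and 0 to 88 with 1 array left out (0 in 6 of 8 such fits). For EIH at 1 day against 3 h, 0 of the 4 were called. With every array at the same median, with array weights or with only the compared groups, 3 were called. Those settings called 115, 1981 and 222 genes in all, against 0. Without AMPH 1 day replicate 2 only Has1 was called, with 180 genes in all. Over all genes the comparison called 6 without dim genes and 0 to 15 with 1 array left out (15 without EIH 3 h replicate 3). In blood at 3 h, EIH called 1 of the 4, and 2 (Has1 added) with array weights, with only the compared groups or without saline 1 day replicate 4, with 1232 genes called in all and 802 to 1160 with 1 array left out (lowest without saline replicate 1). AMPH called 1 of the 4, and 0 to 1 over fits that leave out 1 array, with 826 genes called in all, 1441 under array weights and 425 to 891 with 1 array left out (lowest without saline replicate 1). AMPH in blood at 1 day called 0 of the 4, and 0 to 1 over such fits, with 191 genes called in all, 363 without dim genes, 375 with the trend, 86 with array weights, 0 with only the compared groups and 27 to 375 with 1 array left out (lowest without AMPH replicate 4, highest without saline replicate 1); EIH there called 5 genes in all, and 0 to 34 by setting. AMPH against EIH at 1 day in choroid plexus called 0 genes in all and 3 with array weights. Leaving out the pools with a recurring rat kept only 1 EIH pool of 1 day. Calls of that fit are therefore not given for this comparison or for EIH at 1 day against 3 h. The difference between tissues called 589 genes, 1290 with array weights, 979 with only the compared groups and 283 without recurring rats. The cause of these shifts was not tested.

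Uncalled differences changed sign in 26 single-gene fits, while 611 kept their direction and side of the threshold. Another 20 kept their direction and gained a call, and 24 kept it and lost a call. P4ha1 between AMPH and EIH at 1 day in choroid plexus was -0.016 without recurring rats, in a fit that kept only 1 EIH pool of 1 day. Plagl1 after EIH in blood at 3 h was -0.45 with array weights and -0.69 to 0.62 with 1 array left out. Spry1 after EIH in blood at 1 day was -0.42 with the mean over probes and -0.32 to 1.09 with 1 array left out. Has1 between saline tissues was 0.45 with array weights, 0.47 without recurring rats and -0.34 to 0.47 with 1 array left out. For the EIH effect between tissues, Spry1 was -0.25 with array weights and -0.36 to 0.68 with 1 array left out, and Has1 was 0.0057 with shared rats as a random replicate block and -0.51 to 0.37 with 1 array left out. The block changed no call of the 4 genes in the 2 comparisons between tissues. Dim values limit Has1 in saline groups and Has1, Spry1 and Plagl1 in blood, where no detection call is given.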
